A study of Mus musculus with 12 samples.

Results

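The 57 genes described here encode the machinery with which the endoplasmic reticulum takes in, modifies, folds and disposes of secretory and membrane proteins. They were taken by symbol from a list made for this work, with Ensembl gene IDs matched to GENCODE M21, and fall into 21 genes of translocation, 7 of glycosylation, 20 of folding and 9 of degradation. The count table holds 54532 gene IDs, of which 16675 passed the filter on low counts, and all 57 were among those that passed. Bulk RNA sequencing was done on mouse bone marrow cells labelled as hematopoietic stem and progenitor cells (HSPCs), in 12 libraries forming 4 groups of 3. Young and aged HSPCs were profiled without culture, and aged HSPCs also after culture, either with vehicle alone or with uridine, a pyrimidine nucleoside. All libraries were labelled wild type, with a strain label of c57bl/6 for the vehicle cultures and a number after the slash that rose by 1 with each of the other libraries, to c57bl/15, so the strain cannot be read further than the labels give it. The ages, the sort markers, the uridine dose and the culture time were not given in the sources used here. Whether replicate libraries stem from different animals or dishes is not stated in the labels, and p-values therefore reflect only how much these libraries vary, possibly for technical reasons. No culture of young cells and no uncultured cell treated with uridine is among the groups.

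Proteins bound for secretion or the cell surface are recognised at the ribosome by the signal recognition particle and threaded through the Sec61 channel, where signal peptidase trims them and the oligosaccharyltransferase attaches N-glycans. Inside the lumen, chaperones of the Hsp70 and Hsp90 families, the lectins calnexin and calreticulin and the protein disulfide isomerases bring them to their folded form, and those that fail are drawn back to the cytosol and destroyed by ER-associated degradation. When unfolded proteins build up, the sensors Ire1, Perk and Atf6 switch on the unfolded protein response, which raises the transcription of many of these genes through factors such as spliced Xbp1. Plasma cells, which secrete antibody in bulk, carry a greatly enlarged version of this machinery, whereas hematopoietic stem cells are known for a low rate of protein synthesis.

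Library totals ran from 16785065 to 19025802 counts. Levels are in CPM, read counts per gene scaled to a common library size with TMM factors, with mean ± SD of 3 libraries. The TMM factors were 0.836 in the aged uncultured libraries and 1.05 to 1.07 in all others. A lower factor raises CPM, so aged uncultured levels stand higher against the other groups than plain shares of counts would. HSPC marker genes were present in every group, with a summed level of 895 to 912 CPM in young, 924 to 958 in aged uncultured, 1419 to 1429 in vehicle and 1159 to 1206 in uridine libraries, and with Kit, the stem cell factor receptor, at 254, 201, 262 and 274 CPM in that order. The aged uncultured libraries also carried the RNA of antibody-secreting cells. Immunoglobulin genes made up 21.6 to 21.9% of their counts, against 0.54% in young, 0.92% in vehicle and 0.60 to 0.61% in uridine libraries. All 10 plasma cell markers were higher in aged than in young uncultured libraries and all 10 were lower in vehicle cultures than in uncultured aged cells. Their summed level was 561 to 571 CPM in young, 25113 to 25342 in aged uncultured, 906 to 952 in vehicle and 603 to 623 in uridine libraries, and none was at 0 in any group. The sum is led by Jchain, the joining chain of secreted antibody, at 303, 23474, 781 and 439 CPM, and it also holds Mzb1, an endoplasmic reticulum protein of B lineage cells (38.9, 389, 16.8 and 20.5 CPM). Mature B cell markers summed to 723 to 731 CPM in young, 6255 to 6535 in aged uncultured, 443 to 446 in vehicle and 443 to 467 in uridine libraries. The part of these cells in the differences below was not tested. In bulk RNA, fewer cells of a type and less RNA per cell cannot be told apart.

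In aged uncultured cells, 38 of the 57 genes were higher than in young cells, 11 were lower and 8 were not called at an adjusted p of 0.05 in the edgeR quasi-likelihood test. The 49 called genes were 86.0% of the 57, where 65.3% of all genes tested were called, 33.2% higher and 32.1% lower. The median log2 fold change of the 57 was 0.25, against 0.02 over all genes. Higher by at least 1 on the log2 scale were 12 of the 57, where 12.6% of all genes were, and 0 were lower by as much, where 9.04% were. The rises were led by Derl3, a derlin of the retrotranslocation machinery (4.89 ± 0.078), Txndc5, a thioredoxin-domain disulfide isomerase (3.02 ± 0.026), and Herpud1, which recruits substrates to the degradation complex (1.90 ± 0.034). The falls were led by Ero1l, an oxidase that recharges the disulfide isomerases (-0.80 ± 0.040), Canx, the lectin chaperone calnexin (-0.67 ± 0.025), and Hspa5, the Hsp70 chaperone BiP (-0.54 ± 0.018). Libraries of the 2 groups did not overlap for 52 of the 57 genes, where 66.9% of all genes had no overlap.

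After culture with vehicle, 35 of the 57 genes were lower than in uncultured aged cells, 9 were higher and 13 were not called. The 44 called genes were 77.2% of the 57, where 70.5% of all genes tested were called, 35.4% higher and 35.1% lower. The median log2 fold change was -0.27, against -0.01 over all genes. Lower by at least 1 on the log2 scale were 10 of the 57, a share close to the 17.2% of all genes. They were Derl3 (-4.73), Txndc5 (-2.85), Herpud1 (-2.78), Dnajb9 (-2.08), Ero1lb (-2.06), Txndc11 (-1.69), Syvn1 (-1.38), Creld2 (-1.35) and Edem2 (-1.22), and Sec11c, which was 2.01-fold lower. Libraries of the 2 groups did not overlap for 46 of the 57 genes, where 71.5% of all genes had no overlap. The 9 higher genes were Derl2 (0.54), Canx (0.54), Ero1l (0.46), Stt3a (0.35), Ssr3 (0.30), Ostc (0.16), Srp72 (0.15), Ssr1 (0.11) and Hyou1 (0.08). With upper quartile factors the calls of Ostc, Ssr1 and Hyou1 were lost (adjusted p = 0.0506, 0.134 and 0.579), and that of Hyou1 also without aged uncultured replicate 2 (adjusted p = 0.0508) and with the 6 compared libraries alone (adjusted p = 0.0672). This comparison and that of aged with young cells share the uncultured aged libraries, whose summed plasma cell marker level is given above. Markers of other cells differed as well between uncultured and vehicle cells. Erythroid markers summed to 146 to 149 CPM in uncultured aged and 6.04 to 7.91 CPM in vehicle libraries (8 of 8 lower), and T and NK cell markers to 263 to 291 and 33.6 to 37.3 CPM (7 of 7 lower). Granulocyte progenitor markers summed to 13814 to 14339 and 3851 to 3969 CPM (5 of 5 lower). Macrophage markers summed to 376 to 398 and 1365 to 1375 CPM (6 of 9 higher, 3 lower), and megakaryocyte markers to 115 to 125 and 1129 to 1135 CPM (5 of 6 tested higher). Of the other lists, mature B cell (10 of 10), stroma and endothelium (7 of 7 tested), B cell precursor (5 of 6) and mature neutrophil markers (8 of 10, with 1 higher) were mostly lower, mast cell and basophil markers were higher (5 of 5), and HSPC markers were split (4 higher, 2 lower). Their part in the changes of the 57 genes was not tested.

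Between the cultures the differences were small. With uridine, 13 of the 57 genes were higher than with vehicle, 23 were lower and 21 were not called. The 36 called genes were 63.2% of the 57, where 38.1% of all genes tested were called, 20.0% higher and 18.1% lower. With the DESeq2 size factors the split was 9 higher against 29 lower. The median log2 fold change was -0.07, against 0.00 over all genes, and the range ran from -0.41 to 0.64, so that 0 of the 57 passed 1 on the log2 scale in either direction, where 6.32% of all genes were higher and 0.708% lower by as much. Libraries did not overlap for 41 of the 57 genes, where 50% of all genes had none. The chaperone Dnajb9 (0.64 ± 0.063), Hspa5 (0.36 ± 0.018), Herpud1 (0.32 ± 0.038) and the oxidase Ero1lb (0.32 ± 0.058) were the 4 highest. Sec61g, the gamma subunit of the channel (-0.41 ± 0.068), Manf, a secreted ER stress protein (-0.23 ± 0.037), and Dad1, a subunit of the oligosaccharyltransferase (-0.22 ± 0.050), were among the lowest. This comparison shares the vehicle libraries with the one above.

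**Figure D1:**
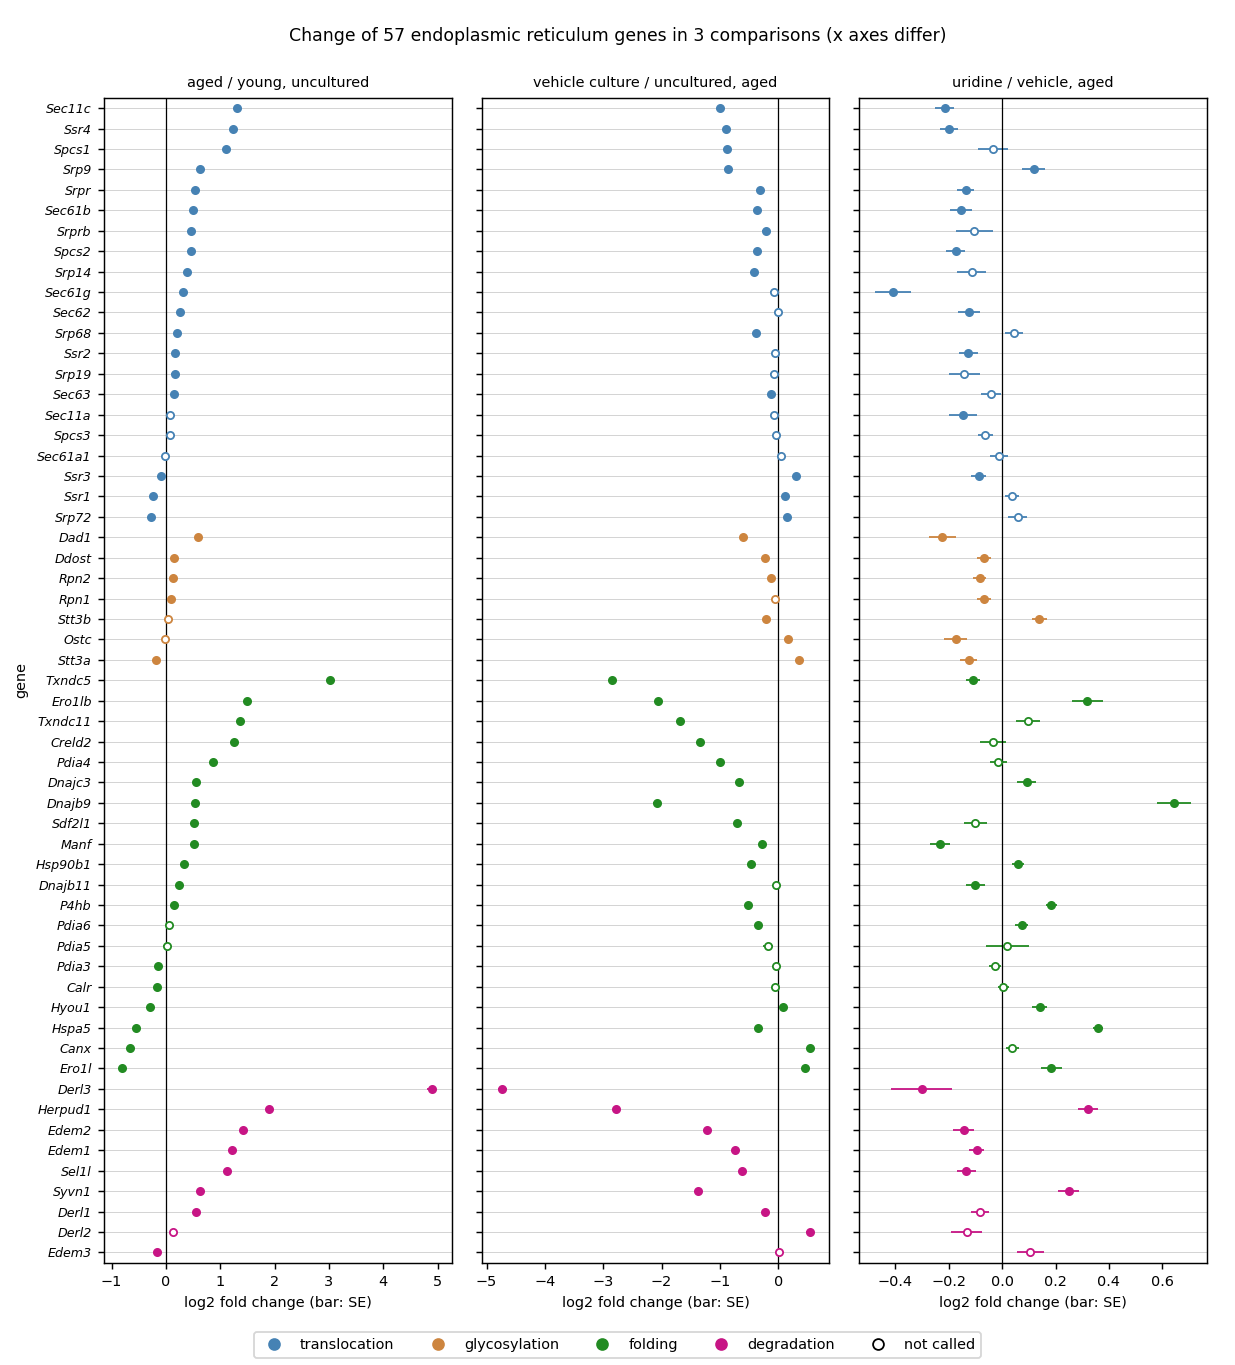
Log2 fold change (x axis, points; bars, SE) of each of the 57 genes (y axis, grouped by function and sorted by the change with age) in the 3 comparisons, with filled points for genes called at an adjusted p under 0.05 and open points for the others. In the left panel 38 filled points lie right of 0 and 11 left, in the middle panel 9 and 35, and in the right panel 13 and 23, on a narrower axis.

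Summed over the 57 genes, levels were 15148 ± 57.7 CPM in young, 18505 ± 90.6 in aged uncultured, 13554 ± 23.1 in vehicle and 13779 ± 109 in uridine libraries. With TMM scaling, aged uncultured cells held the highest sum in each of the 4 functional groups. This ranking rests on the TMM factors given above. As plain shares of counts, the aged uncultured sum would be highest for degradation genes alone. The sum of all 57 genes would then lie under that of young libraries. Degradation genes summed to 1008 ± 7.02, 2336 ± 19.6, 1084 ± 7.80 and 1065 ± 24.8 CPM in young, aged uncultured, vehicle and uridine libraries. They had the widest spread as a ratio, 2.32-fold from the lowest to the highest mean. Folding genes summed to 9166 ± 31.7, 10413 ± 66.0, 7351 ± 30.6 and 7834 ± 76.4 CPM, 1.42-fold from the lowest to the highest mean and the widest spread in CPM, with both cultures under the young libraries. Translocation genes summed to 3092 ± 15.6, 3758 ± 4.54, 3233 ± 15.3 and 3074 ± 15.1 CPM. Glycosylation genes differed least, at 1882 ± 16.3, 1998 ± 18.0, 1885 ± 11.9 and 1806 ± 19.6 CPM. By single genes, 42 of the 57 had their highest mean in aged uncultured cells, where 35.0% of all genes tested had theirs. Young libraries held the highest mean of 9 genes, vehicle of 6 and uridine of 0, where 25.6%, 29.6% and 9.85% of all genes had theirs in these groups.

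**Figure D2:**
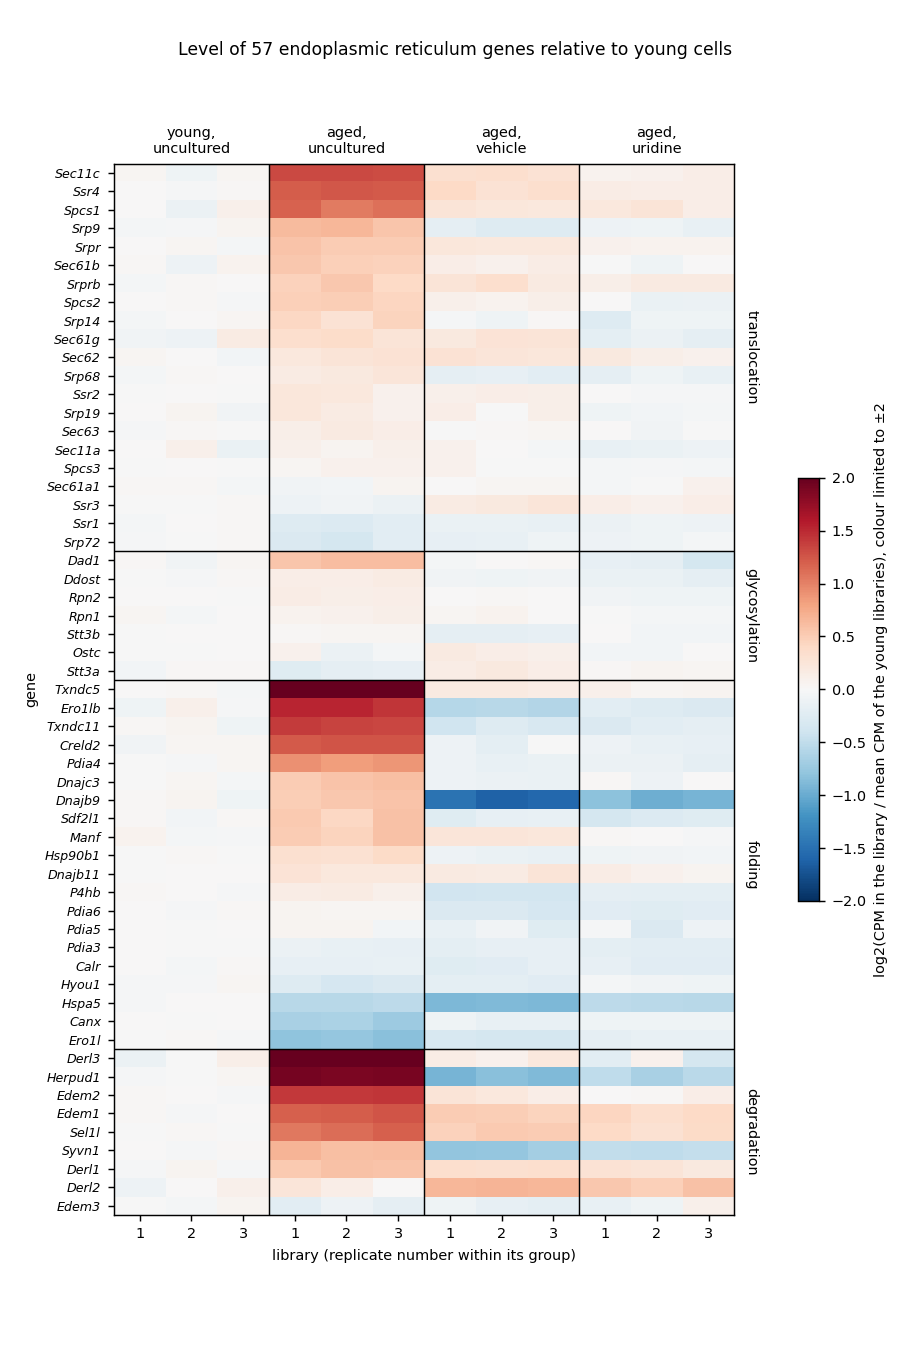
Level of each of the 57 genes (rows, grouped by function) in each of the 12 libraries (columns), as the log2 ratio of CPM to the mean of the young libraries, with colour limited to 2 in either direction. Red rows in the aged uncultured columns mark genes such as Txndc5, Derl3 and Herpud1, blue ones Canx and Ero1l, and Dnajb9 is darkest in the vehicle columns.

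Among the 21 translocation genes, 15 were higher with age, 3 were lower and 3 were not called, with a median log2 fold change of 0.25. The called share was 85.7%, against 65.3% of all genes tested (33.2% higher, 32.1% lower). Subunits of 1 complex often differed in their change. Of the channel itself Sec61a1, its pore, was not called (-0.03 ± 0.034, adjusted p = 0.508). The 2 small channel subunits rose, Sec61b from 108 ± 6.17 to 151 ± 4.63 CPM and Sec61g from 38.3 ± 3.83 to 47.8 ± 1.99 CPM. Sec62 and Sec63, which serve proteins that are imported after their synthesis, rose slightly (0.25 ± 0.042 and 0.14 ± 0.038).

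Sec11c, one of 2 alternative catalytic subunits of signal peptidase, was at 136, 125 and 137 CPM in the young and 332, 331 and 329 CPM in the aged uncultured libraries. In vehicle cultures it was at 165, 168 and 161 CPM and in uridine cultures at 139, 141 and 146 CPM. The aged uncultured libraries stood above all others, and the uridine libraries lay under the vehicle ones and over the young ones. Its change with age was 1.32 ± 0.035 (SE), adjusted p = 7.09e-28, and that with uridine -0.21 ± 0.035 (SE), adjusted p = 5.04e-06. Sec11a, the other catalytic subunit, stayed uncalled with age, at 72.7 ± 5.94 and 76.9 ± 1.48 CPM. Its lower level with uridine (-0.15 ± 0.052) lost the call without vehicle replicate 1 or uridine replicate 1 or 2 (adjusted p up to 0.143). Of the accessory subunits of the same enzyme, Spcs1 was at 49.7 ± 3.83 in young and 107 ± 5.41 CPM in aged uncultured libraries (1.11 ± 0.055), Spcs2 rose by less (0.46 ± 0.034), and Spcs3 was not called (0.07 ± 0.030). Exons of Spcs1 overlap those of Glt8d1 on the opposite strand (20.8 and 33.4 CPM in young and aged uncultured cells), and as the strandedness of the counting is unknown, their reads cannot be told apart there.

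The translocon-associated protein complex, which helps signal sequences enter the channel, held subunits that changed in both directions. Ssr4, its delta subunit, was at 119.7, 118 and 121 CPM in young and 278, 284 and 281 CPM in aged uncultured libraries. All 3 aged uncultured libraries were higher than any library of the other groups, of which the highest was a vehicle library at 158 CPM. The change with age was 1.23 ± 0.034 (SE), adjusted p = 2.58e-27. Ssr2 rose slightly (0.17 ± 0.036), whereas Ssr1 (-0.25 ± 0.027) and Ssr3 (-0.09 ± 0.028) fell. Ssr3 then was the translocation gene with the largest rise from uncultured to vehicle cells (0.30 ± 0.028).

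The signal recognition particle recognises the emerging signal sequence. Its Alu-domain proteins Srp9 and Srp14, which pause translation, rose with age, from 90.1 ± 3.43 to 139 ± 5.40 CPM and from 65.0 ± 2.01 to 85.1 ± 4.79 CPM. Srp68 (0.20 ± 0.034) also rose, while its partner Srp72 fell (-0.28 ± 0.035). The rise of Srp19 (0.16 ± 0.059, adjusted p = 0.0179) lost its call without young replicate 3 or aged uncultured replicate 1 (adjusted p up to 0.103) and with no low-count filter (adjusted p = 0.0516). Both chains of the receptor, Srpr and Srprb, rose by about the same amount (0.53 ± 0.033 and 0.47 ± 0.070). Exons of Srpr overlap those of Tirap and Fam118b on the opposite strand, at 10.2 and 16.0 CPM in young and 15.5 and 15.8 CPM in aged uncultured cells. In vehicle cultures Srp9 was at 76.6 ± 2.31 CPM, under the young level, and it lay at 83.2 ± 2.14 CPM with uridine.

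Against vehicle, uridine left 10 of the 21 translocation genes lower, 1 higher and 10 uncalled, with a median of -0.11. The called share was 52.4%, against 38.1% of all genes tested (20.0% higher, 18.1% lower). Sec61g was at 43.8, 46.1 and 45.9 CPM with vehicle and 33.4, 35.3 and 33.7 CPM with uridine. The 2 groups did not overlap, and the uridine libraries lay just under the young ones at 36.6, 35.5 and 42.7 CPM. The test gave -0.41 ± 0.068 (SE), adjusted p = 6.97e-06, the largest fall of the 57 genes. Ssr4 (-0.20 ± 0.034), Spcs2 (-0.17 ± 0.034), Sec61b (-0.15 ± 0.041), Srpr (-0.14 ± 0.032) and Ssr2 (-0.13 ± 0.036) were also lower. Each of these 6 and Sec11c kept its call under every alternative tried. The small differences of Ssr3 (-0.09 ± 0.027), Sec62 (-0.12 ± 0.040) and Srp9 (0.12 ± 0.044) did not. Ssr3 lost its call without vehicle replicate 3 or uridine replicate 2 (adjusted p up to 0.0739), Sec62 without vehicle replicate 1 or uridine replicate 2 or 3 (adjusted p up to 0.0889) and Srp9 without vehicle replicate 2 or 3 or uridine replicate 1 or 2 (adjusted p up to 0.125). The call of Srp9 was also lost with DESeq2 size factors (adjusted p = 0.0803), with no low-count filter (adjusted p = 0.0854) and with the DESeq2 Wald test (adjusted p = 0.113).

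The oligosaccharyltransferase transfers a preassembled glycan to asparagine, and exists in a form with Stt3a that works at the channel and one with Stt3b that works on sites passed over. Of its 7 genes, 4 were higher with age, 1 was lower and 2 were not called, with a median log2 fold change of 0.09. The called share was 71.4%, near the 65.3% of all genes tested. Dad1, a small structural subunit, carried the largest rise. It was at 75.7, 70.7 and 76.6 CPM in young, 109, 114 and 114 in aged uncultured, 72.0, 74.3 and 75.9 in vehicle and 66.6, 65.3 and 58.2 in uridine libraries. Aged uncultured libraries were the highest, and uridine libraries the lowest. The change was 0.60 ± 0.049 (SE), adjusted p = 3.19e-13 with age and -0.22 ± 0.050 (SE), adjusted p = 4.30e-04 with uridine. The other structural subunits moved little with age: Ddost (0.14 ± 0.027), Rpn2 (0.13 ± 0.024) and Rpn1 (0.09 ± 0.027), the last with a call that was lost without young replicate 2 (adjusted p = 0.0529).

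In both comparisons that include the vehicle cultures the catalytic subunits differed in opposite directions, and those cultures held the highest mean of Stt3a and the lowest of Stt3b. Stt3a was at 255 ± 8.55 CPM in young, 224 ± 6.72 in aged uncultured, 286 ± 7.13 in vehicle and 262 ± 1.77 in uridine libraries. It fell with age (-0.19 ± 0.032), was higher in vehicle culture than in uncultured aged cells (0.35 ± 0.032) and was lower with uridine than with vehicle (-0.13 ± 0.031). Stt3b was at 281 ± 1.84, 287 ± 2.91, 249 ± 1.03 and 275 ± 6.70 CPM. It was not called with age (0.03 ± 0.028), was lower in vehicle culture (-0.20 ± 0.028) and was the 1 glycosylation gene that was higher with uridine (0.14 ± 0.028). The other 6 were lower with uridine, though Ddost (-0.07 ± 0.027) lost the call without vehicle replicate 1 or 3 or uridine replicate 1, 2 or 3 (adjusted p up to 0.171) and Rpn1 (-0.07 ± 0.027) without vehicle replicate 1 or 2 or uridine replicate 2 or 3 (adjusted p up to 0.145). Ddost also lost it with upper quartile factors (adjusted p = 0.0871), with a filter of 1 CPM in 3 libraries (adjusted p = 0.0749) and with a replicate block (adjusted p = 0.0507), and Rpn1 with upper quartile factors (adjusted p = 0.0778) and with a filter of 1 CPM in 3 libraries (adjusted p = 0.0703). Ostc, which belongs to the form with Stt3a, was at 105 ± 2.38 with vehicle and 93.2 ± 2.12 CPM with uridine (-0.17 ± 0.043). With uridine 100% of the glycosylation genes were called, against 38.1% of all genes tested.

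**Figure D3:**
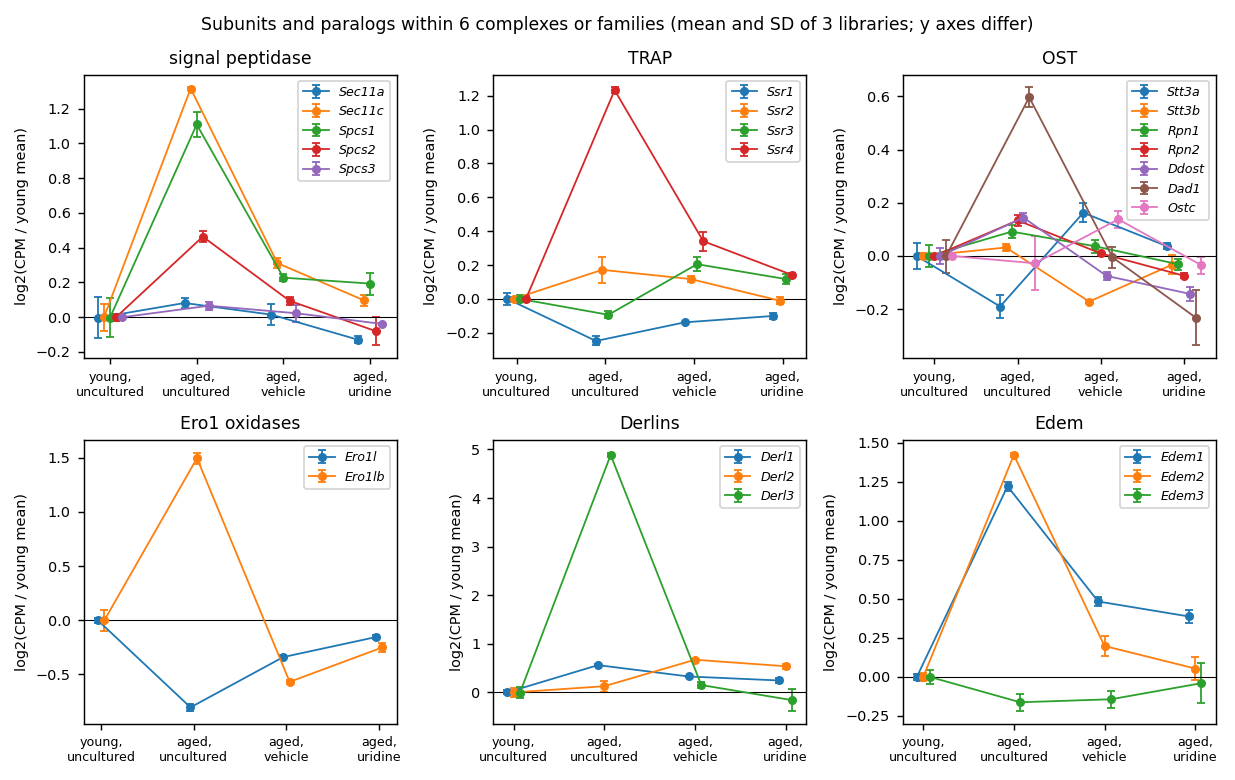
Mean log2 ratio of CPM to the young mean (y axis; bars, SD of 3 libraries; y axes differ) in the 4 groups (x axis) for the subunits of signal peptidase, the translocon-associated protein complex (TRAP) and the oligosaccharyltransferase (OST), and for the Ero1, derlin and Edem families, with lines that only join the points of a gene. In aged uncultured cells single members such as Sec11c, Ssr4, Dad1, Ero1lb and Derl3 stand above the others of their panel.

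Of the 20 folding genes, 12 were higher with age, 6 were lower and 2 were not called, with a median log2 fold change of 0.28. The called share was 90.0%, against 65.3% of all genes tested. The disulfide isomerases and their relatives did not move together. Txndc5 was at 202, 205 and 196 CPM in young and 1665, 1608 and 1622 CPM in aged uncultured libraries. With vehicle it was at 229, 228 and 224 CPM and with uridine at 215, 207 and 208 CPM. The 3 aged uncultured libraries stood far above the other 9, which lay close together. The change with age was 3.02 ± 0.026 (SE), adjusted p = 2.87e-43, or 8.11-fold, and from uncultured to vehicle cells it was -2.85 ± 0.026. Per kb of exon, Txndc5 ranked 25 of the 57 genes in young cells (44.8 CPM per kb) and 2 in aged uncultured cells (363 CPM per kb). Its exons overlap those of Bmp6 on the opposite strand, listed at 0.105 in young and 12.6 CPM in aged uncultured cells.

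Txndc11, another thioredoxin-domain protein, rose from 90.8 ± 4.50 to 233 ± 5.67 CPM (1.36 ± 0.041), and its exons overlap those of Snn on the opposite strand, which was at 32.7 in young and 150.3 CPM in aged uncultured cells. Creld2, an isomerase-like protein released under ER stress, rose from 64.9 ± 2.95 to 154 ± 1.73 CPM (1.25 ± 0.047). Pdia4 rose from 211 ± 4.90 to 387 ± 9.91 CPM (0.87 ± 0.030). P4hb, the archetypal disulfide isomerase, rose by little (0.14 ± 0.021). Pdia3, which works on glycoproteins bound to calnexin and calreticulin, fell by 0.14 on the log2 scale. Pdia5 and Pdia6 were not called (0.02 ± 0.081 and 0.05 ± 0.025).

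The 2 Ero1 oxidases, which pass electrons from the isomerases to oxygen, moved in opposite directions. Ero1lb was at 46.3, 52.5 and 48.1 CPM in young and 140.2, 141 and 133 CPM in aged uncultured libraries. Ero1l was at 119, 122 and 118 CPM in young and 68.6, 69.8 and 66.8 CPM in aged uncultured libraries. The libraries of young and aged cells did not overlap for either gene. Per kb of exon, Ero1l stood above Ero1lb in young cells (22.6 and 7.36 CPM per kb) and Ero1lb above Ero1l in aged uncultured cells (20.7 and 12.9 CPM per kb). The tests gave 1.50 ± 0.052 (SE), adjusted p = 3.96e-24 for Ero1lb and -0.80 ± 0.040 (SE), adjusted p = 3.26e-19 for Ero1l. In vehicle culture Ero1lb fell under the young libraries, to 33.0, 33.5 and 32.6 CPM, and Ero1l stood between the young and aged uncultured ones at 95.7, 93.3 and 94.0 CPM. Both were higher with uridine, at 42.5, 41.1 and 39.9 CPM (0.32 ± 0.058) and 106, 108 and 108 CPM (0.18 ± 0.038).

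Per kb of exon, chaperones and isomerases led the 57 genes in young cells. Calr, calreticulin, had the highest level per kb in each group, with 623 CPM per kb of exon in young and 557 in aged uncultured cells, followed in young cells by Hspa5 (474), P4hb (326), Pdia3 (237) and Hsp90b1 (197). Hspa5 was at 1984, 2012 and 2022 CPM in young and 1370.2, 1367 and 1388 CPM in aged uncultured libraries. With vehicle it was at 1077, 1087 and 1072 CPM and with uridine at 1396, 1384 and 1371 CPM. Young libraries were the highest and vehicle libraries the lowest, and the uridine libraries reached the levels of the aged uncultured ones, with which they overlapped. The changes were -0.54 ± 0.018 (SE), adjusted p = 5.60e-25 with age and 0.36 ± 0.018 (SE), adjusted p = 1.20e-18 with uridine. Its fall with age was in the same libraries as the high plasma cell markers, and the part of plasma cells in it was not tested.

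Canx was at 640.2, 633 and 645 CPM in young and 408, 412 and 387 CPM in aged uncultured libraries. It was at 600.4, 579 and 578 CPM with vehicle and 599.9, 600.1 and 604 CPM with uridine. The aged uncultured libraries lay under all 9 others. The change was -0.67 ± 0.025 (SE), adjusted p = 5.01e-23 with age and 0.54 ± 0.025 (SE), adjusted p = 2.03e-20 from uncultured to vehicle cells. Calr moved the same way with age by less (-0.16 ± 0.021), as did Hyou1, a large Hsp70-like nucleotide exchange factor for BiP (-0.29 ± 0.028). Hsp90b1, the Hsp90 of the endoplasmic reticulum, rose instead (0.34 ± 0.022). So did Manf, which binds BiP (0.51 ± 0.037), and Sdf2l1, a cofactor of the chaperones (0.51 ± 0.042). Manf shares exon sequence with Dcaf1 on the opposite strand and Rbm15b on its own, at 86.1 and 109 CPM in young and 49.0 and 87.7 CPM in aged uncultured cells.

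The 3 J-domain cochaperones among the folding genes, which hand clients to BiP, all rose with age: Dnajc3 (0.56 ± 0.035), Dnajb9 (0.53 ± 0.053) and Dnajb11 (0.23 ± 0.037). Dnajb9 differed most between the cultures. It was at 73.7, 75.4 and 68.5 CPM in young, 102, 105 and 107 in aged uncultured, 26.1, 23.7 and 24.3 in vehicle and 41.0, 36.8 and 38.0 in uridine libraries. No 2 of the 4 groups overlapped, and both cultures lay under the young cells. Its change from uncultured aged to vehicle cells was -2.08 ± 0.060 (SE), adjusted p = 4.91e-27. With uridine it was 0.64 ± 0.063 (SE), adjusted p = 1.63e-10 against vehicle, the largest rise with uridine among the 57 genes. Dnajb11 was not called in vehicle culture (-0.03 ± 0.036), and Dnajc3 was lower (-0.67 ± 0.036).

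Folding genes as a group were low in the cultures. In vehicle cultures 16 of the 20 had all 3 libraries under every young library and 3 had all over, and with uridine 16 lay under and 2 over. Over all genes tested, 34.8% lay under and 35.4% over young libraries with vehicle, and 27.9% and 29.3% with uridine. No test of the cultures against young cells was run. Of the 21 translocation genes, 4 lay under and 11 over with vehicle, and 7 under and 7 over with uridine. Between the cultures, 9 folding genes were higher with uridine, 3 were lower and 8 were not called, with a median of 0.05. The rises of Dnajb9, Hspa5, Ero1lb, P4hb (0.18 ± 0.021), Ero1l and Hyou1 (0.14 ± 0.027) kept their calls under every alternative, as did the falls of Manf and Txndc5 (-0.11 ± 0.026). Those of Hsp90b1 (0.06 ± 0.022), Pdia6 (0.07 ± 0.025) and Dnajc3 (0.09 ± 0.036) lost them with the DESeq2 size factors, with the DESeq2 Wald test and with no low-count filter (adjusted p = 0.209, 0.102 and 0.123 with the size factors). Hsp90b1 also lost its call without vehicle replicate 2 or 3 or uridine replicate 2 or 3 (adjusted p up to 0.205), Pdia6 without vehicle replicate 3 or uridine replicate 3 (adjusted p up to 0.135) and Dnajc3 without vehicle replicate 1, 2 or 3 or uridine replicate 1 or 3 (adjusted p up to 0.207). The fall of Dnajb11 (-0.10 ± 0.036) lost its call without vehicle replicate 3 or uridine replicate 2 or 3 (adjusted p up to 0.173).

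**Figure D4:**
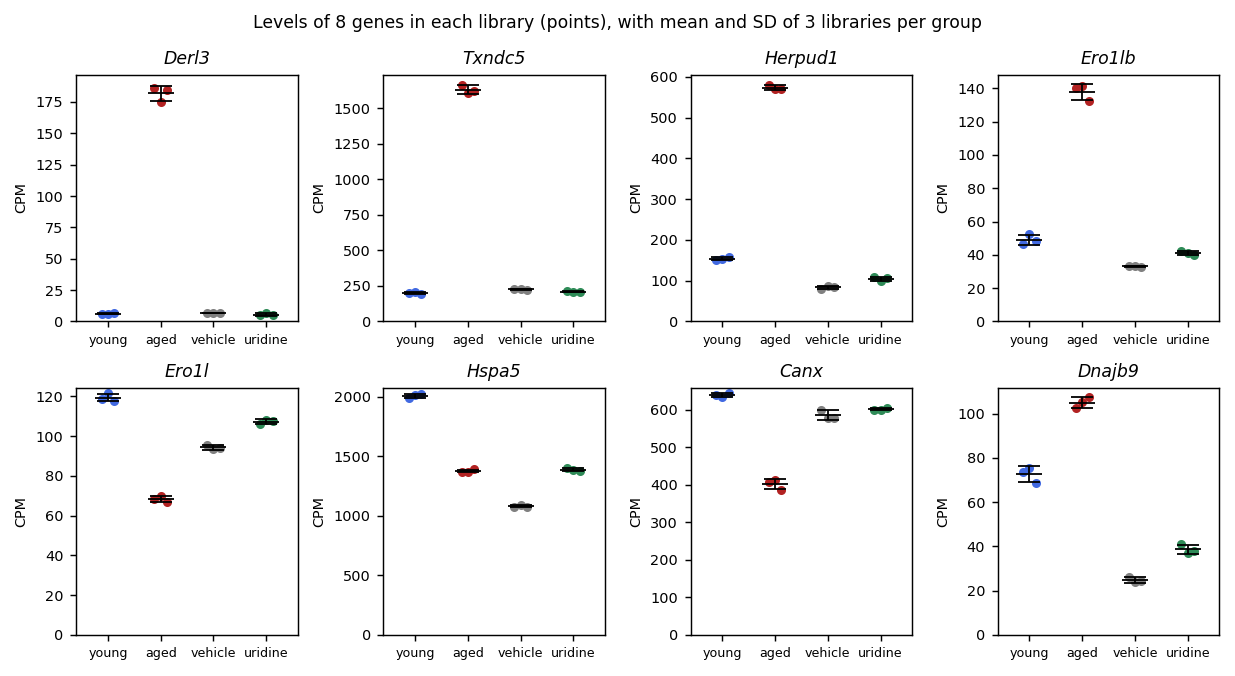
CPM (y axis, from 0) of 8 genes in each of the 12 libraries (points), with the mean and SD of 3 libraries (bars) for young and aged uncultured cells and for aged cells cultured with vehicle or uridine (x axis). Derl3, Txndc5, Herpud1 and Ero1lb are highest in aged uncultured cells, Ero1l and Canx lowest there, and Hspa5 and Dnajb9 are lowest with vehicle and higher with uridine.

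Degradation genes had the largest median change with age of the 4 functional groups. Of the 9 genes, 7 were higher with age, 1 was lower and 1 was not called, with a median log2 fold change of 1.12. The called share was 88.9%, against 65.3% of all genes tested. Derl3, a derlin known from secretory cells, was at 5.65, 6.13 and 6.67 CPM in young and 186, 175 and 184 CPM in aged uncultured libraries. In the cultures it was back at 6.84, 6.54 and 7.12 CPM with vehicle and 5.32, 6.50 and 4.82 CPM with uridine. The 3 aged uncultured libraries stood far above the other 9. The change was 4.89 ± 0.078 (SE), adjusted p = 7.72e-35 with age, or 29.6-fold. Its slightly lower level with uridine (-0.30 ± 0.11, adjusted p = 0.0346) lost the call without vehicle replicate 1 or 3 or uridine replicate 1 or 3 (adjusted p up to 0.189) and with the 6 compared libraries alone (adjusted p = 0.111). The related Derl1 rose by less with age (0.56 ± 0.034), and Derl2 was not called (0.13 ± 0.064).

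Derl2 was instead highest in culture, at 66.7 ± 0.477 with vehicle and 60.8 ± 2.37 CPM with uridine, against 41.9 ± 2.95 CPM in young and 45.8 ± 3.62 CPM in aged uncultured cells. Its exons overlap those of Mis12 on the opposite strand, which was at 22.0 CPM in aged uncultured and 51.5 CPM in vehicle cells.

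Herpud1 was at 151, 152 and 157 CPM in young, 580.5, 569 and 571 in aged uncultured, 80.7, 86.4 and 83.5 in vehicle and 109, 98.3 and 106 in uridine libraries. The groups did not overlap, and both cultures lay under the young libraries. The changes were 1.90 ± 0.034 (SE), adjusted p = 1.89e-33 with age, -2.78 ± 0.036 (SE), adjusted p = 3.97e-38 in vehicle culture and 0.32 ± 0.038 (SE), adjusted p = 9.19e-09 with uridine. Syvn1, the ubiquitin ligase Hrd1 at the centre of the degradation complex, had the same order of groups, at 140.5 ± 2.16, 218 ± 5.97, 83.8 ± 3.65 and 99.6 ± 0.985 CPM. Its changes were 0.63 ± 0.036 with age, -1.38 ± 0.038 in vehicle culture and 0.25 ± 0.039 with uridine. Its exons overlap those of Mrpl49 on the opposite strand, which stood at 34.9 CPM in young cells and, in uncultured aged ones, at 27.7 CPM. Sel1l, its membrane partner, was at 113 ± 1.59, 245 ± 11.5, 159 ± 2.78 and 145 ± 4.76 CPM. Unlike Syvn1 it stayed over the young level in both cultures and was lower with uridine than with vehicle (-0.13 ± 0.036).

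The Edem proteins trim mannose from glycoproteins that are to be degraded. Edem2, which makes the first cut, was at 97.5, 97.3 and 94.5 CPM in young and 258, 256 and 261 CPM in aged uncultured libraries (1.42 ± 0.039), and Edem1 was at 228, 222 and 226 and 516, 523 and 537 CPM (1.22 ± 0.028). For both genes the aged uncultured libraries stood above all others. Edem3 fell (-0.16 ± 0.052). In vehicle culture Edem2 (-1.22 ± 0.038) and Edem1 (-0.74 ± 0.028) fell and Edem3 was not called (0.02 ± 0.053). With uridine Edem2 was lower again (-0.14 ± 0.040), and the lower level of Edem1 (-0.10 ± 0.028) lost its call without uridine replicate 2 (adjusted p = 0.0652).

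Many genes of the folding and degradation machinery are known targets of the unfolded protein response, so the start regions of the 57 were read for its motifs. RefSeq windows of 250 bases before to 50 after the start (GRCm38.p6) were matched for 47 of the 57 genes, 2 of them by a synonym. Motifs were searched on both strands: the ER stress element ERSE (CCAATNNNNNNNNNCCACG), ERSE-II (ATTGG, any 1 base, CCACG), the core of the unfolded protein response element UPRE (TGACGTGG) and CCACG alone. ERSE and ERSE-II contain CCACG, and the UPRE core contains its reverse complement. ERSE was found in 10 of the 47 genes (21.3%), where 20 of 11318 tested genes with a window had it (0.177%) and 0.137% of all 27025 genes with a window. These 10 were Pdia6, Creld2, Hspa5, Hsp90b1, Calr, Canx, Dnajc3, Ero1lb, Derl3 and Syvn1. They are among the 20 tested genes with ERSE, as the members were not taken out of any of these shares. Because the list holds known targets of this response, the higher share is not a test of these genes. ERSE-II was in Herpud1 and Dnajb11 (4.26%, against 0.0795% of tested genes), and the UPRE core in Txndc5 and Txndc11 (4.26%, against 0.998%). CCACG alone was in 39 genes (83.0%, against 50.2%). The amino acid response element CARE (TGATGNAA) was in 2 genes (4.26%, against 2.9%).

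By function, 8 of 18 folding genes and 2 of 8 degradation genes with a window held ERSE, and 0 of 15 translocation and 0 of 6 glycosylation genes did. A match is a description of the letters and not a bound site, and no match says only that these letters are not in the window. The following stretches are shown because those with ERSE put the same motif beside opposite changes with age, and those of Herpud1 and Txndc5 hold the other motifs beside large rises. They run 5′ to 3′ on the strand of the gene, with the fixed letters of the motif in capitals (CCAAT and CCACG, or ATTGG and CGTGG where the motif is read from the other strand, ATTGG and CCACG for ERSE-II, and the whole UPRE core). Derl3 (chr10:75893148-75893397, plus strand), Creld2 (chr15:88819396-88819645, plus), Ero1lb (chr13:12565633-12565873, plus) and Syvn1 (chr19:6046326-6046575, plus) hold ERSE and were higher with age. Canx (chr11:50325674-50325923, minus) and Hspa5 (chr2:34772020-34772048, plus) hold ERSE and were lower. Herpud1 (chr8:94386179-94386428, plus) holds ERSE-II, and Txndc5 (chr13:38528040-38528057, minus) the UPRE core before 1 of its 3 annotated starts. The matches of Hspa5 and Txndc5 lie inside the gene as GENCODE places it, and only the motif with 5 bases on each side is shown for them.
Derl3: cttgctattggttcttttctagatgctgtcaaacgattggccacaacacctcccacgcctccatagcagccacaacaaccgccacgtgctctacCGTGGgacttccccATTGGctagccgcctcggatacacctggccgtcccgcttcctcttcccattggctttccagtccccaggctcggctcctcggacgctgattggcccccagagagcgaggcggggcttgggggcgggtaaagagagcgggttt
Creld2: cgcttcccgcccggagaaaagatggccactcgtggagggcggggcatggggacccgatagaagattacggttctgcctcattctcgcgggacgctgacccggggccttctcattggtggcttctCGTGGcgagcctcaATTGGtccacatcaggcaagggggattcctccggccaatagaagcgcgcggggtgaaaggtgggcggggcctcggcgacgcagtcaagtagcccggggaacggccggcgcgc
Ero1lb: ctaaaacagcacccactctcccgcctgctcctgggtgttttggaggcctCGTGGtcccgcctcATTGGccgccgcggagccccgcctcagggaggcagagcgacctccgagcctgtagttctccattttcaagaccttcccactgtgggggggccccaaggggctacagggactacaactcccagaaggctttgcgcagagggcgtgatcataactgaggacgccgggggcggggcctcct
Syvn1: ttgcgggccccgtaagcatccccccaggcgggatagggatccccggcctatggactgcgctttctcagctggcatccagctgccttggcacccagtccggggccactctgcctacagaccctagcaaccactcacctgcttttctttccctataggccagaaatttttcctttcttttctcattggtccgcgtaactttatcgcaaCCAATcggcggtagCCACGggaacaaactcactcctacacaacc
Canx: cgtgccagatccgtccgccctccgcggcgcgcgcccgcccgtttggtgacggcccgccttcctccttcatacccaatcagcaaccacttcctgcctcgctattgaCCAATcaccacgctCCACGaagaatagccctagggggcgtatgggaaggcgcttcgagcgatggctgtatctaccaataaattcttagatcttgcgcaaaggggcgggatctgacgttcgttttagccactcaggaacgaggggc
Hspa5: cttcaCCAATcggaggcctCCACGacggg
Herpud1: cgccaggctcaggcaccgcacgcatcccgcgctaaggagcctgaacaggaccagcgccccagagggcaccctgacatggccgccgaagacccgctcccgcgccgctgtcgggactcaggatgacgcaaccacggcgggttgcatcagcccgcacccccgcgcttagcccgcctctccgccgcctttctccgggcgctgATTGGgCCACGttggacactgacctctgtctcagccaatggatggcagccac
Txndc5: gccgcTGACGTGGcgcta

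Read beside the counts, the 10 genes with ERSE went both ways with age. Derl3, Ero1lb, Creld2, Syvn1, Dnajc3 and Hsp90b1 were higher, Canx, Hspa5 and Calr were lower, and Pdia6 was not called. With uridine, Hspa5, Ero1lb and Syvn1 were higher and kept their calls under every alternative, Hsp90b1, Pdia6 and Dnajc3 were higher with calls that were lost under some, and Derl3 was lower (-0.30 ± 0.11) with a call that was lost under some. Canx (0.04 ± 0.025), Calr (0.00 ± 0.021) and Creld2 (-0.03 ± 0.050) were not called. The holders of ERSE-II, Herpud1 and Dnajb11, were both higher with age, and with uridine Herpud1 was higher and Dnajb11 lower (-0.10 ± 0.036). Those of the UPRE core, Txndc5 and Txndc11, were both higher with age, and with uridine Txndc5 was lower (-0.11 ± 0.026) and Txndc11 was not called (0.10 ± 0.045).

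**Figure D5:**
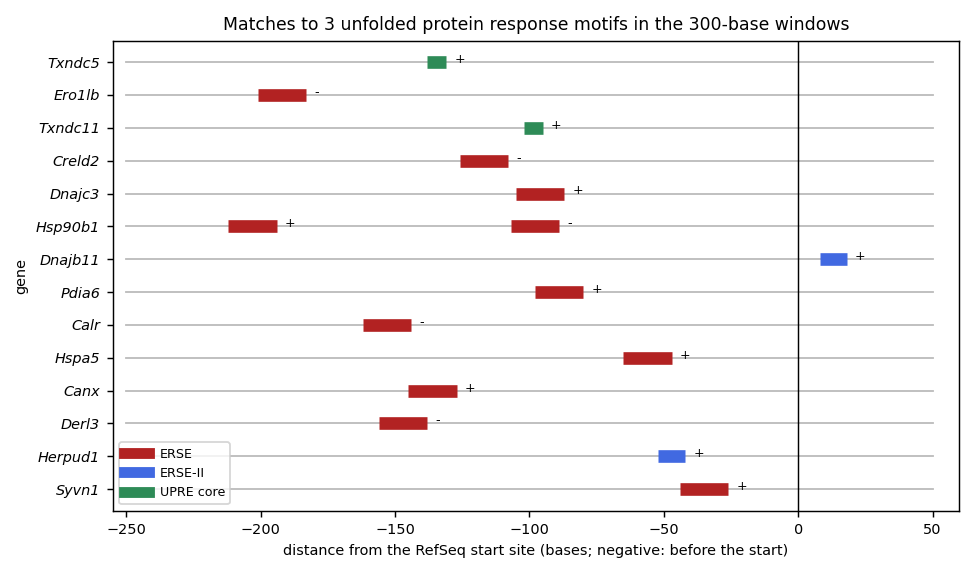
Position of each match to ERSE, ERSE-II and the UPRE core (coloured bars, drawn to scale; + or -, strand relative to the gene) in the 300-base windows of the 14 genes that hold one (y axis), as distance in bases from the RefSeq start (x axis, negative before the start). All but that of Dnajb11 lie before the start, and Hsp90b1 holds 2 matches.

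Of 14 sensors and regulators of the unfolded protein response that were listed, 13 were tested, and 8 were higher with age, 3 lower and 2 not called. The called share was 84.6%, against 65.3% of all genes tested, 33.2% higher and 32.1% lower. The gene left out was Ddit3, whose symbol was not matched to a single gene ID. Xbp1, the factor that drives secretory machinery in plasma cells, was at 185, 179 and 188 CPM in young, 855, 855 and 864 in aged uncultured, 225, 222 and 217 in vehicle and 193, 185 and 186 in uridine libraries. The aged uncultured libraries were highest and the vehicle libraries lay over the young and uridine ones. The change was 2.22 ± 0.028 (SE), adjusted p = 5.18e-38 with age and -0.23 ± 0.029 (SE), adjusted p = 2.09e-08 with uridine. Counts per gene do not separate the spliced from the unspliced form. Ern1, which encodes the sensor Ire1 that splices Xbp1, went the other way, at 218 ± 1.65, 142 ± 0.816, 138 ± 1.62 and 192 ± 7.68 CPM in the same order. It fell with age (-0.61 ± 0.034) and was higher with uridine than with vehicle (0.48 ± 0.034).

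The sensors Eif2ak3, which encodes Perk, and Atf6 rose with age (1.07 ± 0.052 and 0.66 ± 0.039) and fell in vehicle culture (-1.45 ± 0.054 and -0.59 ± 0.039). Atf4, the factor translated when Perk is active, was at 273 ± 7.18, 446 ± 11.2, 236 ± 1.39 and 231 ± 4.81 CPM. Ppp1r15a, which restores translation after stress, was at 240, 246 and 244 CPM in young, 389, 401 and 415 in aged uncultured, 34.0, 28.0 and 30.4 in vehicle and 98.6, 96.5 and 97.4 in uridine libraries. No groups overlapped. The change was -3.70 ± 0.044 (SE), adjusted p = 4.07e-39 in vehicle culture and 1.66 ± 0.047 (SE), adjusted p = 3.81e-26 with uridine, where the 57 genes reached at most 0.64. Trib3, a target of the Atf4 branch, was at 3.03 ± 0.292 CPM in young and 3.33 ± 0.252 in aged uncultured libraries, not called with age (0.14 ± 0.19, adjusted p = 0.553), and was highest in vehicle cultures, at 9.76 ± 1.36 CPM against 5.70 ± 0.104 with uridine (-0.78 ± 0.15). Creb3l2, a membrane-bound factor of the secretory pathway, rose with age from 35.1 ± 2.90 to 104 ± 2.73 CPM.

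Further genes of the same steps, from lists separate from the 57, changed in both directions. Of 16 tested genes of degradation, 11 were higher with age and 2 lower, among them Ube2j1, a ubiquitin-conjugating enzyme of the endoplasmic reticulum (0.95 ± 0.039), Man1b1, a mannosidase (0.65 ± 0.037), and Erlec1, a lectin (1.28 ± 0.073). Of 23 genes of export and retrieval, 14 were higher and 6 lower, with Sec24a, a coat subunit (0.80 ± 0.072), as the gene with the smallest adjusted p. Of 16 genes of translocation and membrane insertion, 7 were higher and 5 lower, and Tram2 (2.37 ± 0.064) and Sil1, a nucleotide exchange factor for BiP (1.25 ± 0.065), led. Of 26 genes of N-glycan assembly and trimming, 11 were higher and 8 lower, with Krtcap2, an oligosaccharyltransferase subunit, up (0.83 ± 0.046) and Uggt1, the folding sensor of the calnexin cycle, down (-0.38 ± 0.033). Of 17 further folding enzymes, 7 were higher and 3 lower, with Fkbp2, a prolyl isomerase, up (1.14 ± 0.060). The median log2 fold changes of these lists were 0.26, 0.15, 0.06, 0.00 and 0.07 in that order, against 0.02 over all genes, and their called shares were 81.2%, 87.0%, 75.0%, 73.1% and 58.8%, against 65.3%.

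With uridine, 20.0% of all genes tested were higher and 18.1% lower, 38.1% in all. The called shares of these lists were 39.1% for export, 37.5% for translocation and 34.6% for N-glycan genes, close to that of all genes, and 62.5% for degradation and 58.8% for folding enzymes. Each list held more lower than higher genes, with 4 higher and 6 lower for degradation, 2 and 7 for export, 1 and 5 for translocation, 3 and 6 for N-glycan genes and 2 and 8 for folding enzymes. These counts moved when single libraries were left out, and the 2 directions were level for N-glycan genes without vehicle replicate 3 (3 and 3), for degradation without uridine replicate 3 (3 and 3) or with upper quartile factors (4 and 4) and for export without vehicle replicate 2 (2 and 2). Fkbp2 (-0.28 ± 0.062), Sil1 (-0.27 ± 0.065) and Krtcap2 (-0.27 ± 0.046) were lower, and Ube2j1 (0.18 ± 0.041) was higher. In vehicle culture the list of degradation held 3 higher and 9 lower genes and that of export 5 and 13, with Ube2j1 (-1.38 ± 0.040) and Man1b1 (-0.96 ± 0.037) lower, whereas translocation held 7 and 5, N-glycan genes 10 and 6 and folding enzymes 6 and 9. Over all genes 35.4% were higher there and 35.1% lower.

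Markers of other cells also differed between the cultures, and their part in the differences of the 57 genes was not tested. With uridine, 9 of 10 mature neutrophil markers were higher, with summed levels of 319 to 328 CPM with vehicle and 2061 to 2130 CPM with uridine, and 8 of 8 erythroid markers were higher, at 6.04 to 7.91 and 130 to 135 CPM, with Slc4a1 and Rhag at 0 counts with vehicle. All 6 B cell precursor markers were higher with uridine (21.8 to 25.7 and 196 to 202 CPM). Macrophage markers summed to 1365 to 1375 CPM with vehicle and 845 to 867 CPM with uridine, with 6 of 9 lower. Megakaryocyte markers summed to 1129 to 1135 and 743 to 758 CPM, with 5 of 6 tested lower. Gp1bb, at 0 counts with uridine, was also at 0 in young and aged uncultured libraries. Plasma cell markers were split, with 3 higher, 3 lower and 4 not called. Their sum, led by Jchain, was 906 to 952 CPM with vehicle and 603 to 623 CPM with uridine. Of mature B cell markers 7 of 10 were higher and 1 lower, and of HSPC markers 2 were higher and 6 lower. Of the remaining lists, 4 of 5 granulocyte progenitor, 6 of 7 T and NK cell, 5 of 7 tested stroma and endothelium and 2 of 5 mast cell and basophil markers were higher with uridine, and 1 of the last was lower. With age, all 10 mature neutrophil, 8 erythroid, 6 B cell precursor and 5 mast cell and basophil markers were lower in the uncultured cells, and all 5 granulocyte progenitor markers were higher. All 10 mature B cell and 6 of 7 T and NK cell markers were also higher with age. Macrophage (4 higher, 2 lower), megakaryocyte (1 higher, 4 lower), stroma and endothelium (2 higher, 4 lower) and HSPC markers (4 higher, 3 lower) were split.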

How the data were processed

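The authors deposited raw counts of reads for 54532 Ensembl IDs in 12 libraries. HISAT2 2.0.5 and the build mm10 are named by the submitters' processing notes, whereas the counter, its gene models and its strand setting were not given in the sources used here. GENCODE M21 gave symbols and exon lengths for 54495 IDs, and the unmatched IDs held at most 0.00589% of a library. The edgeR 4.0.16 quasi-likelihood F-test (filterByExpr, TMM factors, 1 mean per group, all 12 libraries, residual degrees of freedom 8) was fitted to 16675 genes, with Benjamini-Hochberg adjustment over all of them and a threshold of 0.05. The standard error (SE) of a log2 fold change was its size over the square root of F. DESeq2 1.42.0, other scaling factors, other low-count filters and a fit without immunoglobulin genes and Jchain were alternatives. So were a fit of the 6 compared libraries, a replicate block and leaving out each library. The fit was tested on simulated data. No 2 libraries of a group agreed within sampling noise (chi-square over genes).

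The 57 genes and the other lists were chosen with earlier results of these data known. Any of the 57 and any unfolded protein response regulator could be named. Of each other pathway list up to 3 called genes with the smallest adjusted p could be named, and of each marker list the 3 most abundant and any plasma cell marker. Promoter sequences are from RefSeq (GRCm38.p6).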

Additional observations from a re-analysis of the deposited data

How the results depend on the processing

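The counts of called genes, both over all genes and over the 57, stayed within 1.5 times the reported ones under each alternative run. Counts of the further lists with uridine moved by more. In the further degradation list, the higher genes went from 4 to 1 with DESeq2 size factors. In the export list, the lower genes went from 7 to 2 without vehicle replicate 2. Leaving out 1 library at a time gave 38 to 39 higher and 11 lower of the 57 genes with age, 9 to 13 higher and 16 to 23 lower with uridine, and 8 to 10 higher and 34 to 37 lower in vehicle culture. Over all genes it gave 5233 to 5359 higher and 5157 to 5276 lower with age, 2880 to 2995 and 2536 to 2662 with uridine, and 5699 to 5848 and 5673 to 5763 in vehicle culture.

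The replicate numbers did not pair the libraries. Deviations of same-numbered libraries correlated at -0.017 to 0.022 over genes, and same-numbered libraries did not stand out from the others. With the replicate number as a block, 38 of the 57 genes were higher and 11 lower with age, 13 and 22 with uridine and 9 and 36 in vehicle culture. Over all genes the block gave 5450 and 5318, 3289 and 2961, and 5882 and 5785.

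Calls kept under every alternative numbered 36 of 38 and 11 of 11 with age, 9 of 13 and 15 of 23 with uridine, and 6 of 9 and 33 of 35 in vehicle culture, for higher and lower genes. In 10 cases a log2 fold change of a gene that was not called changed sign. Ostc with age came to -0.081 to 0.020 without single libraries. Pdia5 with age came to -0.00097 to 0.057 without single libraries. Calr with uridine came to -0.018 with DESeq2 size factors, -0.0044 with no low-count filter, -0.017 with DESeq2 Wald test and -0.019 to 0.027 without single libraries. Pdia5 with uridine came to -0.0036 with DESeq2 size factors, -0.0036 with DESeq2 Wald test and -0.041 to 0.087 without single libraries. Creld2 with uridine came to -0.085 to 0.012 without single libraries. Sec61a1 with uridine came to -0.050 to 0.011 without single libraries. Pdia4 with uridine came to -0.027 to 0.0027 without single libraries. Sec62 in vehicle culture came to -0.0082 with DESeq2 size factors and -0.062 with upper quartile factors. It came to -0.0049 with immunoglobulin genes and Jchain left out of the fit and -0.013 with a filter of 1 CPM in 3 libraries. It came to -0.0081 with DESeq2 Wald test, -0.015 with 6 compared libraries only and -0.016 to 0.028 without single libraries. Sec61a1 in vehicle culture came to -0.0085 with upper quartile factors and 0.036 to 0.094 without single libraries. Edem3 in vehicle culture came to -0.044 with upper quartile factors and -0.0092 to 0.053 without single libraries. The cause was not tested. Precision is limited by the 3 libraries in each group.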
